A study of Mus musculus with 5 samples.

Results

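The 10 secreted factors described here were followed in RNA-seq of mouse neural stem cells (NSCs) and of STO cells: *Lif*, *Il6*, *Il11*, *Clcf1*, *Ctf1* and *Cntf* of the interleukin-6 family, and *Kitl*, *Csf1*, *Hgf* and *Vegfa*. They were chosen by name as cytokines and growth factors that feeder cells can supply, and all 10 of them were found among the 25414 genes of the files, through 29 of the 40201 RefSeq transcripts. STO is an established line of SIM mouse embryo fibroblasts, resistant to thioguanine and ouabain, and its cells served in the study as the feeder layer for female germline stem cells, in a medium to which LIF was added. The 3 STO libraries came from this 1 line, labelled C57BL/6, after more than 30 passages in high-glucose DMEM with 10% fetal bovine serum, and no label says that the sequenced cells had been mitotically inactivated. The 2 NSC libraries came from primary cells of mouse embryonic cortex, labelled C57BL/6, at passages 5 to 8, grown without feeders on poly-l-ornithine and laminin with B27, heparin, 20 ng/ml EGF and 20 ng/ml bFGF. The cell types therefore differed in origin, passage and medium together, and these cannot be told apart. No label names separate cultures for the replicates, so p-values measure the spread between these samples, which may be technical.

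Feeder cells hold stem cells in culture through the proteins they secrete or display on their surface. Interleukin-6 family cytokines act through the shared receptor chain gp130, encoded by *Il6st*, which activates JAK kinases and the transcription factor STAT3, and LIF is the member long used to maintain mouse pluripotent stem cells. KITL (stem cell factor) signals through the receptor KIT in germ cells and blood progenitors, CSF1 through CSF1R in macrophages, HGF through MET in epithelial cells, and VEGFA through FLT1 and KDR in endothelium.

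The 250 bases before the annotated start are shown for 4 factors that were higher in STO cells and for *Vegfa*, which was lower, because these 5 were the windows, of the 12 of the factors, with a match to the NF-kB consensus. They were chosen after the search, for that match. Capitals mark the matches to the motifs searched. The sequences are those of RefSeq, and each was placed in NCBIM37, the assembly called mm9, by its single exact match. They lie at chr5:30339404-30339653 on the plus strand for *Il6*, at chr11:4157321-4157570 on the plus strand for *Lif*, at chr3:107563388-107563637 on the minus strand for *Csf1*, at chr10:99478205-99478454 on the plus strand for *Kitl*, and at chr17:46169327-46169576 on the minus strand for *Vegfa*.
Il6: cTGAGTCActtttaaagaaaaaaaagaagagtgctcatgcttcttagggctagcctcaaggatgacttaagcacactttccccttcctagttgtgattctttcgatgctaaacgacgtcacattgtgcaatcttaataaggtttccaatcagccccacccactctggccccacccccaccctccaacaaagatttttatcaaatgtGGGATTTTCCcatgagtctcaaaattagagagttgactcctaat
Lif: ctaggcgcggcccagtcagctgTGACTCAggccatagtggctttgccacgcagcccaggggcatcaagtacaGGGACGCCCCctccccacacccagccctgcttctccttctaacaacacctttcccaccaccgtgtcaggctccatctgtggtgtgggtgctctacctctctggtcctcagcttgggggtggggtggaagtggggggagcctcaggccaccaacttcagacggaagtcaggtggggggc
Csf1: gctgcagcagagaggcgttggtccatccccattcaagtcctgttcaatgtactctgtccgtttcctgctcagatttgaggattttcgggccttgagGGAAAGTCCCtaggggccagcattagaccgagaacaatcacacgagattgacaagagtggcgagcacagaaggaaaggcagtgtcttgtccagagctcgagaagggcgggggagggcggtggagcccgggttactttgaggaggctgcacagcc
Kitl: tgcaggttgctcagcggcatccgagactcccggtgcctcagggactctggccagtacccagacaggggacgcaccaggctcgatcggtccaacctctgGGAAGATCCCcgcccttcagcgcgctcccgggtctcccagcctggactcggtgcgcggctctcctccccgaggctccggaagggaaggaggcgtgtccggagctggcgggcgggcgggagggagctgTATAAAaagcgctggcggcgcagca
Vegfa: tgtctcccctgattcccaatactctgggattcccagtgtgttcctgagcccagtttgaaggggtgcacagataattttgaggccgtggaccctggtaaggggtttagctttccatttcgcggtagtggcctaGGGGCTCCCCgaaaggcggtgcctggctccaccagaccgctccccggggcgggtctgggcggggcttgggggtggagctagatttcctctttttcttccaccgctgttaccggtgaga
The NF-kB match lay 44 bases before the start in *Il6* (GGGATTTTCC), 178 in *Lif* (GGGACGCCCC), 154 in *Csf1*, 152 in *Kitl* and 118 in *Vegfa*. The other 7 windows of the factors, for *Hgf*, *Il11*, *Ctf1*, *Cntf* and the downstream start of *Vegfa*, held none, and among all 32851 RefSeq windows of this length 7.25% held one. *Clcf1* had no entry in the table of promoters. The AP-1 motif TGANTCA was found in *Il6* and *Lif*, and also in 1 window each of *Il11* and *Cntf*, against 6.75% of all windows. The TATA box TATAAA was found only in *Kitl* among the factors (12.4% of all windows), and the hypoxia response core ACGTG only at the downstream start of *Vegfa* (16.6% of all windows). The STAT motif TTCNNNGAA, in 7.02% of all windows, and the CRE motif TGACGTCA, in 1.55%, were in none of the 12 windows. Both strands were searched and no 2 matches overlapped. A match describes these letters only, and binding was not measured.

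Library depth was judged from the deposited confidence bounds, which imply about 15223300 fragments in STO replicate 1, the shallowest library, and 22271900 in NSC replicate 2, the deepest. Pearson's r across genes was 0.994 between the NSC replicates and 0.994 to 0.995 among the STO replicates, and no gene had the same value above 0 in any pair of libraries. All 7 fibroblast markers were higher in STO cells, with *Fn1* (fibronectin) at 370 to 412 FPKM and *Col1a2* (a type I collagen chain) at 353 to 374 FPKM, and they summed to 5.08 to 5.12 FPKM in NSCs and 1434 to 1538 FPKM in STO cells. All 6 neural stem cell markers were lower, summing to 3811 to 4028 FPKM in NSCs and at most 0.072 FPKM in STO cells, and *Fabp7*, *Olig2*, *Sox2* and *Pax6* were listed at 0 in the 3 STO libraries. The NSC libraries also held astrocyte markers, with *Aldh1l1* at 46.96 and 45.7 FPKM and *Gfap* at 15.9 and 16.9 FPKM, and the 4 of them summed to 70.4 to 71.4 FPKM in NSCs and at most 0.432 FPKM in STO cells. The part of these other differences between the cell types in the levels of the factors was not tested. Of the neuronal markers, *Tubb3* did not differ (7.84 to 9.25 FPKM over the 5 libraries, adjusted p = 0.48), while *Syp* was at 11.1 and 8.36 FPKM in NSCs and at most 0.109 FPKM in STO cells. In bulk RNA, fewer cells of a type and less RNA per cell cannot be told apart.

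The level of each factor is given in FPKM, fragments scaled by transcript length and by the total of mapped fragments, summed over its RefSeq transcripts. Of the 10 factors, 8 were higher in STO cells and *Vegfa* was lower, while *Cntf* was listed at 0 in all 5 libraries and was not tested. The test was limma on log2(FPKM + 1) over the 12292 genes with a mean of at least 1 FPKM in either cell type, and a gene was called where its p-value, adjusted by Benjamini-Hochberg, was under 0.05. By this rule 85.6% of all genes tested were called, 41.9% as higher and 43.7% as lower in STO cells, so a call alone does not set a factor apart. With a difference of at least 1 in log2(FPKM + 1) as well, a rule added after the values were seen, 6 factors were higher (*Hgf*, *Clcf1*, *Csf1*, *Lif*, *Il6* and *Ctf1*) and 1 was lower (*Vegfa*), and in all genes tested 17.1% were higher and 21.3% lower. The 5 factors *Il6*, *Il11*, *Clcf1*, *Ctf1* and *Hgf* passed the minimum through STO cells alone, and so had to differ, whereas *Lif*, *Kitl*, *Csf1* and *Vegfa* passed it in both cell types. Every other tested gene named here with a mean under 1 FPKM in 1 cell type also had to differ. Examples are *Cntfr*, *Plau*, *Mmp9*, *Vegfd* and *Egln3*, and the calls and adjusted p-values of such genes are read with that limit. For each of the 9 factors tested the STO and NSC libraries did not overlap, which held for 89.9% of all genes tested. All STO libraries lay above both NSC libraries in 43.9% of those genes and below them in 46%.

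**Figure D1:**
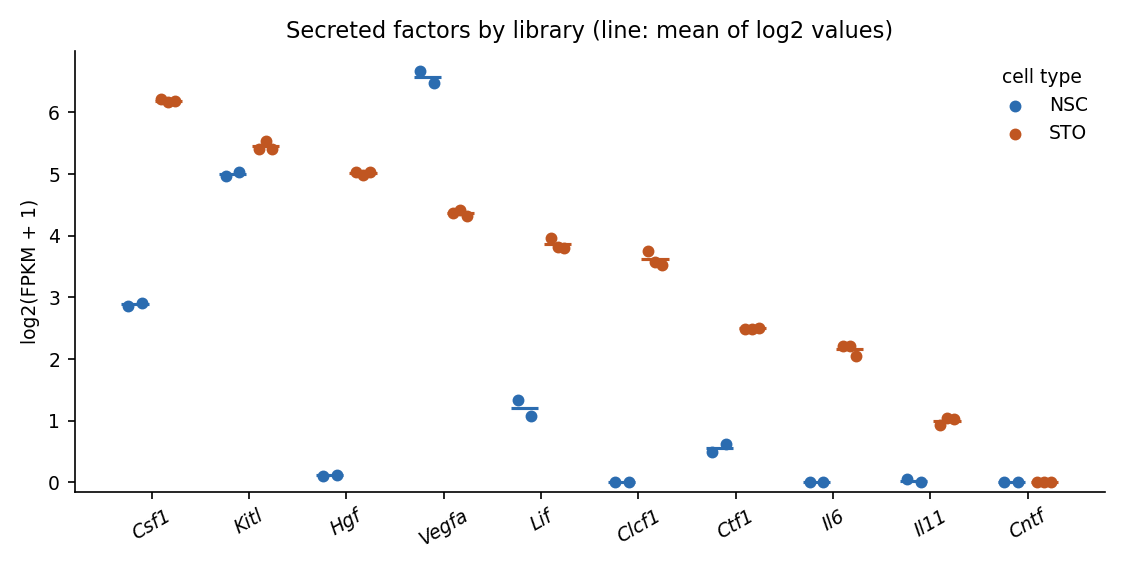
Level of the 10 factors in each library, as log2(FPKM + 1) on the vertical axis, with NSC replicates in blue, STO replicates in orange and a line at the mean of each cell type. Only *Vegfa* lies higher in NSCs, *Kitl* lies close in both, and *Cntf* is at 0 in every library.

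LIF was the factor also added to the germline stem cell medium. *Lif* (chr11:4157571-4172517 in mm9) was at 1.52 and 1.10 FPKM in NSC replicates 1 and 2 and at 14.6, 13.1 and 12.9 FPKM in STO replicates 1, 2 and 3. The STO mean of 13.6 ± 0.932 FPKM (SD, n = 3) was 10.4 times the NSC mean of 1.31 ± 0.297 FPKM (SD, n = 2), and the difference on the log2(FPKM + 1) scale was 2.66 ± 0.097 (SE, limma adjusted p = 8.15e-07). The 2 transcripts, which start 9228 bases apart, made up this level, NM_008501 from the upstream start shown above and NM_001039537 from the downstream start, which is also a transcript start in GENCODE. In STO replicates 1, 2 and 3 the downstream transcript held 35.0%, 30.4% and 39.9% of the FPKM of *Lif*. In NSC replicates 1 and 2 it held 100% and 56.5%, values that rest on only 177 and 100 implied fragments for the whole gene, and the upstream transcript was listed at 0 in the first and at 0.479 FPKM in the second.

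Cardiotrophin-like cytokine factor 1, encoded by *Clcf1* (chr19:4214238-4223505), is a gp130 ligand of the interleukin-6 family. *Clcf1* was listed at 0 in both NSC libraries and was at 12.5, 10.96 and 10.5 FPKM in the STO replicates (mean 11.3 ± 1.04, SD, n = 3, limma adjusted p = 7.37e-08). No fold is given for a gene listed at 0. All of the FPKM of *Clcf1* lay on NM_019952, and its locus overlaps the annotated gene *Gm45928*.

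Cardiotrophin 1, encoded by *Ctf1* (chr7:134856250-134861701), signals through gp130 and LIFR. *Ctf1* was at 0.402 and 0.539 FPKM in NSCs, from 16.1 and 24.0 implied fragments, and at 4.64, 4.60 and 4.70 FPKM in STO cells. The STO mean was 9.87 times the NSC mean, and the difference in log2(FPKM + 1) was 1.94 ± 0.058 (SE, adjusted p = 3.08e-07). The STO level came mostly from NM_007795, at 72.6%, 61.6% and 73.3% of the gene in replicates 1, 2 and 3, and the rest from transcripts that start 201 bases downstream.

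Interleukin 6 and interleukin 11, which both signal through a gp130 homodimer, were low in STO cells and at or near 0 in NSCs. *Il6* (chr5:30339654-30346515) was listed at 0 in both NSC libraries and was at 3.61, 3.63 and 3.16 FPKM in the STO replicates (mean 3.47 ± 0.265, SD, n = 3, adjusted p = 2.76e-07). *Il11* (chr7:4723980-4734459) was at 0.034 and 0 FPKM in NSCs and at 0.915, 1.07 and 1.03 FPKM in STO cells, with a mean of 1.01 ± 0.083 FPKM (SD, n = 3) that only just reached the minimum for testing (adjusted p = 4.65e-06). The *Il11* value in NSC replicate 1 came from 1.33 implied fragments. STO replicate 1 divided *Il11* between 2 start sites, with 55.4% on NM_001290423, and replicates 2 and 3 placed all of it on NM_008350, which starts 4716 bases downstream.

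Ciliary neurotrophic factor, encoded by *Cntf* (chr19:12838018-12840122), was the only factor listed at 0 in every library. Its locus overlaps *Gm44505*. Among the other ligands of the family, *Osm* (oncostatin M), *Il27*, *Ebi3* and *Il31* were also listed at 0 in the 5 libraries, and *Ctf2*, the paralog of *Ctf1*, reached 0.129 FPKM in STO replicate 2 alone. The 6 gp130 ligands among the factors summed to 1.96 and 1.64 FPKM in NSCs and to 36.3, 33.4 and 32.3 FPKM in STO cells, with *Lif* and *Clcf1* as the highest and the second highest in each STO library.

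*Csf1*, the growth factor of macrophages, had the highest level of the 10 factors in STO cells. *Csf1* (chr3:107543966-107563387) was at 6.26 and 6.53 FPKM in NSCs and at 73.4, 70.5 and 71.9 FPKM in STO cells. The means, 6.39 ± 0.189 FPKM (SD, n = 2) and 72.0 ± 1.45 FPKM (SD, n = 3), differed 11.3-fold, or by 3.30 ± 0.050 in log2(FPKM + 1) (SE, adjusted p = 1.6e-08). The mean in STO cells was above that of 92.0% of the genes tested, and the mean in NSCs above that of 34.9%. All of the FPKM was placed on NM_007778 in the 5 libraries, and the other 2 transcripts, which begin at the same base, were listed at 0. Macrophage markers were low in both cell types. *Cd68* was at 2.14 and 3.10 FPKM in NSCs and at 0.863 to 0.927 FPKM in STO cells, and *Ptprc*, *Aif1*, *Itgam*, *Cx3cr1* and *Adgre1* were at most at 0.166 FPKM in any library. The 6 of them summed to 2.15 to 3.10 FPKM in NSCs and to 0.946 to 1.06 FPKM in STO cells.

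*Hgf*, a mitogen made by mesenchymal cells, showed the largest difference of the factors. *Hgf* (chr5:16059313-16125257) was at 0.076 and 0.093 FPKM in NSCs, from 4.02 and 8.10 implied fragments, and at 31.6, 30.7 and 31.6 FPKM in STO cells. The difference was 4.90 ± 0.050 in log2(FPKM + 1) (SE, adjusted p = 5.75e-09), and the STO mean of 31.3 ± 0.517 FPKM (SD, n = 3) was above that of 78.4% of the genes tested. In the 3 STO libraries NM_001289461, whose start lies 406 bases inside that of the others, held 60.8%, 59.98% and 62.5% of the FPKM and NM_001289458 the rest.

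*Kitl*, the ligand of KIT, was expressed in both cell types and differed least in level. *Kitl* (chr10:99478455-99563049) was at 30.3 and 31.9 FPKM in NSCs and at 41.5, 45.3 and 41.6 FPKM in STO cells. The STO mean was 1.38 times the NSC mean, with a difference of 0.45 ± 0.062 in log2(FPKM + 1) (SE, adjusted p = 0.000577). Its 2 RefSeq transcripts share the locus and the start but were divided differently between the cell types. In NSC replicates 1 and 2 NM_001347156 was at 12.7 and 13.8 FPKM, which was 41.9% and 43.3% of the gene, and in the 3 STO libraries it was listed at 0. NM_013598 was at 17.6 and 18.1 FPKM in NSCs and held the whole level in STO cells, 2.40 times its NSC mean.

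*Vegfa*, the angiogenic factor induced by low oxygen, ran the other way. *Vegfa* (chr17:46153943-46169326) was at 101 and 87.8 FPKM in NSCs and at 19.8, 20.3 and 18.9 FPKM in STO cells. The NSC mean of 94.2 ± 9.01 FPKM (SD, n = 2) was 4.79 times the STO mean of 19.7 ± 0.702 FPKM (SD, n = 3), and the difference in log2(FPKM + 1) was -2.20 ± 0.073 (SE, adjusted p = 5.19e-07). It was the highest of the 10 factors in NSCs, above 93.6% of the genes tested. Only NM_009505 and NM_001287058, which share the upstream start shown above, had values above 0, and the 3 transcripts of the start 7214 bases downstream were listed at 0 in every library. NM_009505 held 73.0% and 75.1% of *Vegfa* in NSCs and 38.5%, 41.4% and 49.1% in STO replicates 1, 2 and 3. Its mean was 8.26 times higher in NSCs, against 2.18 times for NM_001287058.

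**Figure D2:**
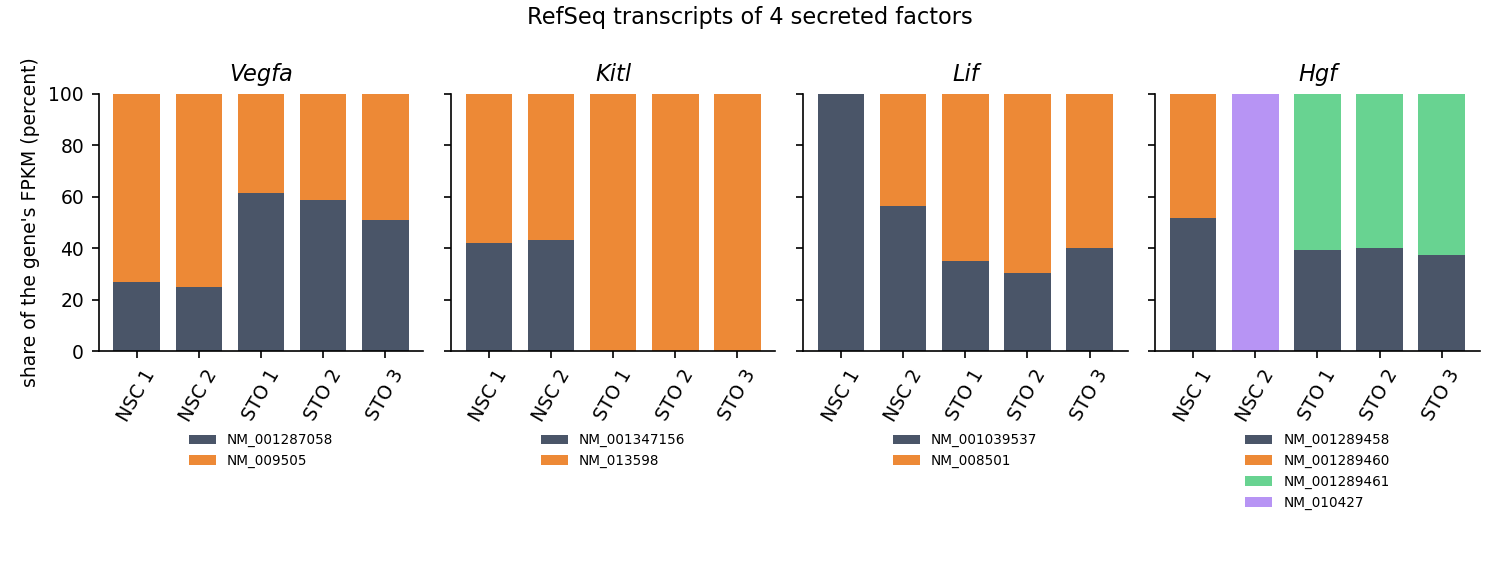
Share of each RefSeq transcript in the FPKM of its gene, in percent, for *Vegfa*, *Kitl*, *Lif* and *Hgf* in the 5 libraries. NM_009505 holds most of *Vegfa* in NSCs and under 50% in STO cells, NM_001347156 of *Kitl* appears in NSCs only, and the *Hgf* bars of the NSC replicates rest on 4.02 and 8.10 implied fragments.

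The transcript shares are a description with no test, because Cufflinks divides fragments between overlapping transcripts of 1 gene and can list a transcript at 0 for that reason. The files do not say which protein each transcript encodes. An exact permutation test of 3 against 2 libraries cannot go below p = 0.1, the value it gave for the level of each of the 9 factors tested (two-sided). Differences on the log2(FPKM + 1) scale understate those of low genes, and with a pseudocount of 0.1 they were 5.15 for *Il6*, 3.25 for *Il11*, 6.83 for *Clcf1*, 3.07 for *Ctf1* and 7.41 for *Hgf*.

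**Figure D3:**
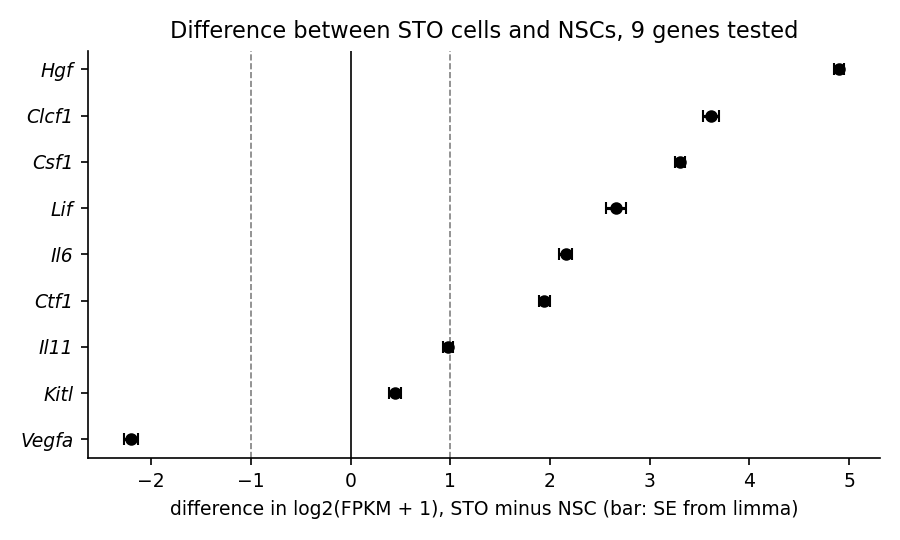
Difference in log2(FPKM + 1) between STO cells and NSCs for the 9 factors tested, with the standard error from limma as a bar and dashed lines at -1 and 1. *Hgf* is at 4.90, *Kitl* and *Il11* lie between 0 and 1, and *Vegfa* is the only factor below 0.

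Taking the factors by level, the order in STO cells was *Csf1*, *Kitl*, *Hgf*, *Vegfa*, *Lif*, *Clcf1*, *Ctf1*, *Il6*, *Il11* and *Cntf*, and the ranges of neighbours did not overlap, although *Lif* (lowest 12.9 FPKM) and *Clcf1* (highest 12.5 FPKM) came close. In NSCs the order was *Vegfa*, *Kitl*, *Csf1*, *Lif*, *Ctf1* and *Hgf*, again without overlap, and *Il11*, *Il6*, *Clcf1* and *Cntf* could not be ordered. The 10 factors summed to 139 and 128 FPKM in NSCs, of which *Vegfa* made up 72.3% and 68.6%. They summed to 203, 200.3 and 196 FPKM in STO cells, where the highest, *Csf1*, made up 35.2% to 36.6%.

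The receptors of the gp130 ligands are given next, to show which cell type had the chains each ligand needs. Of 6 chains, 4 were higher in STO cells, *Cntfr* was lower and *Lifr* was not called, with a median difference of 2.22 in log2(FPKM + 1) against -0.02 over all genes tested. The 5 called of 6 are near the 85.6% called among all genes (41.9% higher and 43.7% lower). *Il6st* (gp130) was at 17.6 and 17.8 FPKM in NSCs and at 127, 131 and 123 FPKM in STO cells (difference 2.77 ± 0.052, SE, adjusted p = 3.76e-08). *Lifr*, the second chain of the LIF receptor, was at 5.46 and 5.63 FPKM in NSCs and at 6.02, 6.04 and 4.26 FPKM in STO cells, with overlapping groups (difference -0.04 ± 0.136, SE, adjusted p = 0.81). STO replicate 3 was the lowest and replicates 1 and 2 the highest of the 5 libraries for *Lifr*. *Osmr* (oncostatin M receptor) was at 1.69 and 1.72 FPKM in NSCs and at 29.7, 32.0 and 32.2 FPKM in STO cells (adjusted p = 2.05e-08). *Il11ra1*, the chain specific to IL-11, was at 2.44 and 2.80 FPKM in NSCs and 20.6 to 26.0 FPKM in STO cells, and *Il6ra*, that specific to IL-6, was at 1.27 and 1.57 FPKM and 6.73 to 7.54 FPKM (adjusted p = 1.57e-06 and 2.01e-06). *Cntfr*, the chain that binds CNTF and takes part in CLCF1 signalling, was at 22.4 and 21.5 FPKM in NSCs and at 0.157 to 0.274 FPKM in STO cells (difference -4.23 ± 0.062, SE, adjusted p = 1.45e-08). STO cells thus had *Clcf1* with little *Cntfr*, and NSCs had *Cntfr* without a listed level of *Clcf1* or *Cntf*.

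**Figure D4:**
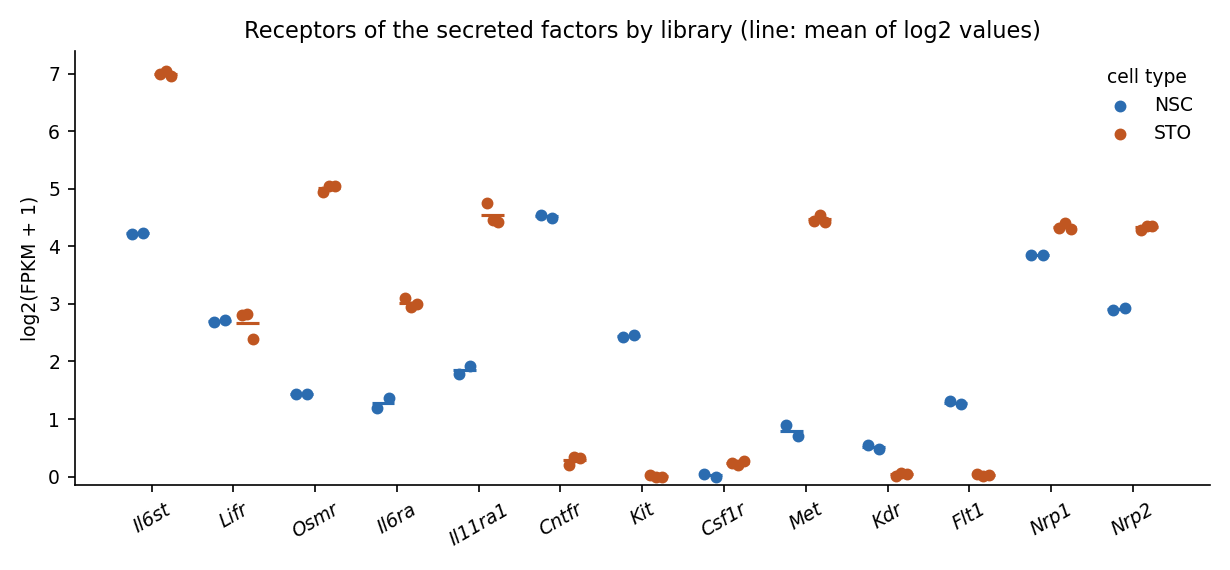
Level of 13 receptor genes in each library, as log2(FPKM + 1), with NSC replicates in blue, STO replicates in orange and a line at the mean of each cell type. *Il6st*, *Osmr*, *Il11ra1* and *Met* lie higher in STO cells, *Cntfr* and *Kit* lie higher in NSCs, and *Lifr* overlaps.

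Among the receptors of the other 4 factors, *Met*, *Nrp1* and *Nrp2* were higher in STO cells, *Kit* and *Flt1* were lower, and *Csf1r* and *Kdr* were under the minimum for testing. All 5 tested were called, against 85.6% of all genes. *Met* passed the minimum through STO cells alone, and *Kit* and *Flt1* through NSCs alone, so these had to differ. *Met*, the HGF receptor, was at 0.865 and 0.628 FPKM in NSCs and at 20.8, 22.4 and 20.3 FPKM in STO cells (difference 3.67 ± 0.079, SE, adjusted p = 7.13e-08), so that *Hgf* and *Met* were both high in STO cells. *Kit* was at 4.35 and 4.47 FPKM in NSCs, beside *Kitl*, and at 0.017, 0 and 0 FPKM in STO cells (difference -2.43 ± 0.042, SE, adjusted p = 2.81e-08). *Csf1r*, the CSF1 receptor, was at most at 0.203 FPKM in STO cells and at 0.033 and 0 FPKM in NSCs. *Flt1* was at 1.49 and 1.39 FPKM in NSCs and at most 0.028 FPKM in STO cells (adjusted p = 5.16e-07), and *Kdr* was at 0.461 and 0.394 FPKM against at most 0.050 FPKM. The VEGFA co-receptors *Nrp1* and *Nrp2* were at 13.4 and 6.44 to 6.62 FPKM in NSCs, and at 18.7 to 20.2 and 18.6 to 19.4 FPKM in STO cells (adjusted p = 0.000201 and 7.72e-07). Endothelial markers were low in both cell types, with the 4 of them summing to at most 0.065 FPKM in NSCs and 0.527 FPKM in STO cells, where *Tek* was at 0.208 to 0.339 FPKM and *Cdh5* at 0.109 to 0.116 FPKM.

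Of the 12 genes of the JAK-STAT3 relay and its inhibitors, 9 were higher in STO cells, *Stat3* was lower, and *Stat5b* and *Tyk2* were not called (median 0.88). The higher genes included the inhibitors *Socs1*, *Socs3*, *Pias3* and *Ptpn2*, so the count and the median do not describe the relay alone. The 10 called of 12 are near the 85.6% of all genes, of which 41.9% were higher and 43.7% lower. Genes named here only to complete a count of at most 5 were chosen after their values were seen. *Socs3*, the feedback inhibitor of gp130, was at 5.89 and 6.25 FPKM in NSCs and at 54.0 to 59.9 FPKM in STO cells (difference 3.02 ± 0.064, SE, adjusted p = 6.29e-08). *Socs1* was at 0.783 and 0.472 FPKM in NSCs and at 7.82 to 10.3 FPKM in STO cells (adjusted p = 3.63e-06). *Stat3* itself was at 76.5 and 73.0 FPKM in NSCs and 60.7 to 61.9 FPKM in STO cells (difference -0.29 ± 0.050, SE, adjusted p = 0.0018). Of 11 tested STAT3 target genes 9 were higher, with *Cebpb*, a transcription factor of the acute phase response, at 6.74 and 7.19 FPKM in NSCs and 153 to 202 FPKM in STO cells, and *Bcl3*, a cofactor of NF-kB, at 0.710 and 0.743 FPKM and 19.1 to 20.1 FPKM. The other 2, *Myc* and *Vim*, were lower, at 39.9 to 41.2 FPKM and 1424 to 1497 FPKM in STO cells against 64.3 and 80.4 FPKM and 2078 and 2172 FPKM in NSCs. The median difference of this list was 2.98, and 41.9% of all genes tested were higher. The list shares *Socs3* with the relay list and *Il6ra* with the gp130 receptor list. Many of these genes answer to other signals too, and STAT3 activity was not measured.

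NF-kB and C/EBP factors are known activators of the *Il6* promoter. The list of 10 genes held these factors and regulators of NF-kB, among them its inhibitors *Nfkbia* and *Tnfaip3*. Of the 10 genes, 9 were higher in STO cells, these inhibitors included, with a median difference of 2.18, while *Ikbkb* was not called. The count and the median therefore do not describe activators alone. *Cebpb* and *Cebpd* were also on the list of STAT3 target genes, so these lists are not separate observations. Of all genes tested, 41.9% were higher. The largest differences were those of *Cebpb*, 4.46 ± 0.117 (SE, adjusted p = 1.69e-07), and of *Nfkb2*, an NF-kB subunit, 3.21 ± 0.056 (SE, adjusted p = 2.9e-08). *Nfkb2* was at 9.03 and 8.40 FPKM in NSCs and at 87.2 to 91.9 FPKM in STO cells. These are levels of mRNA, and the location of the proteins was not measured.

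**Figure D5:**
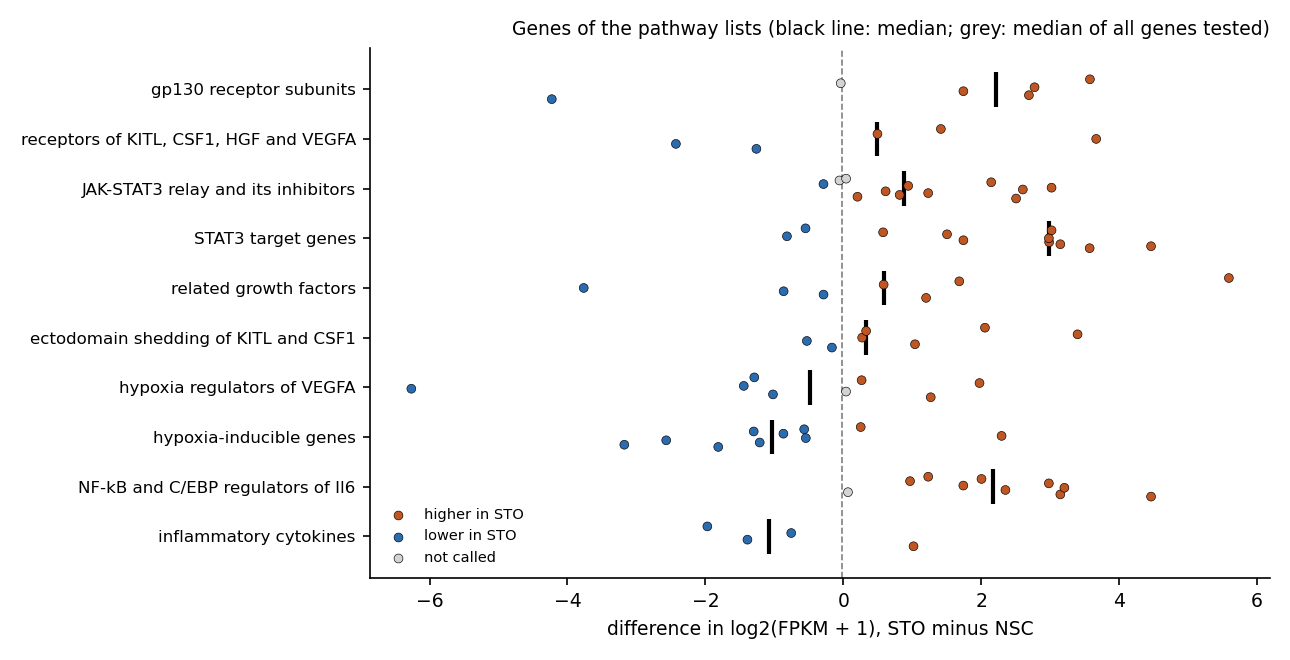
Difference in log2(FPKM + 1) between STO cells and NSCs for each tested gene of 10 pathway lists, in orange where higher and blue where lower in STO cells and grey where not called, with a black line at the median of each list. The medians of the STAT3 target, gp130 receptor and NF-kB lists are 2.98, 2.22 and 2.18, that of the hypoxia-inducible genes is -1.04, and the dashed line at -0.02 is the median of all genes tested. *Cebpb*, *Cebpd*, *Il6ra* and *Socs3* are shared between lists and shown in each.

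KITL and CSF1 are made as membrane proteins and shed by proteases. Of 7 genes for shedding, 5 were higher in STO cells, and *Adam10* and *Adam19* were lower (median 0.33), where 85.6% of all genes were called, 41.9% as higher and 43.7% as lower. *Mmp9*, a gelatinase known to release KITL, was at 0.060 and 0.027 FPKM in NSCs and at 9.94, 10.2 and 9.85 FPKM in STO cells (difference 3.40 ± 0.050, SE, adjusted p = 1.47e-08). *Rhbdf2*, which brings ADAM17 to the cell surface, was at 0.105 and 0.064 FPKM in NSCs and 3.23 to 3.71 FPKM in STO cells (adjusted p = 3.31e-07).

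HGF is secreted as an inactive precursor that serine proteases cut. Among the genes for its activation, *Plau* was higher in STO cells and *Plat* and *Spint2* were lower. *Plau* (urokinase) was at 0.936 and 0.979 FPKM in NSCs and at 23.4, 22.6 and 23.4 FPKM in STO cells (adjusted p = 1.31e-08), and *Plat* was at 180 and 188 FPKM against 16.1 to 16.8 FPKM. The dedicated activator *Hgfac* reached at most 0.161 FPKM in any library.

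Low oxygen induces *Vegfa* through HIF proteins, which PHD enzymes and VHL mark for decay. Of 10 hypoxia-inducible genes, 8 were lower in STO cells, as *Vegfa* was, and *Ndrg1* and *Slc2a1* were higher, with a median difference of -1.04, and 43.7% of all genes tested were lower. *Ankrd37* was at 8.65 and 7.45 FPKM and *Car9*, a carbonic anhydrase, at 5.49 and 4.42 FPKM in NSCs, and both were listed at 0 in the STO libraries (adjusted p = 6.02e-08 and 3.84e-07). Of the 8 regulators, 3 were higher and 4 lower in STO cells, and *Egln2* was not called (median -0.49), a share and a split near those of all genes (41.9% higher and 43.7% lower). The list held HIF genes and genes that oppose HIF, so the count and the median do not describe activators alone. *Egln3*, a PHD enzyme that HIF itself induces, was at 74.8 and 77.7 FPKM in NSCs and at 0.017, 0 and 0 FPKM in STO cells (difference -6.26 ± 0.051, SE, adjusted p = 5.07e-09). *Hif1a* ran opposite to *Vegfa*, at 30.7 and 34.3 FPKM in NSCs and at 124, 139 and 130 FPKM in STO cells (difference 1.98 ± 0.077, SE, adjusted p = 1.11e-06). The other HIF genes of the list, named after their values were seen, were split. *Epas1* ran with *Vegfa*, at 12.2 and 13.2 FPKM in NSCs and 3.96 to 4.09 FPKM in STO cells. *Arnt* ran opposite to it, at 10.1 and 9.26 FPKM in NSCs and 23.9 to 25.7 FPKM in STO cells. Oxygen was not recorded in the labels, and its part in these levels was not tested.

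Of 7 tested growth factors related to *Csf1*, *Vegfa* and their like, *Vegfd*, *Vegfc*, *Csf3* and *Vegfb* were higher in STO cells and *Ptn*, *Pgf* and *Il34* were lower (median 0.59), where 41.9% of all genes were higher and 43.7% lower. *Vegfd*, a lymphangiogenic relative of VEGFA, was at 0.150 and 0 FPKM in NSCs and at 51.2, 51.6 and 49.5 FPKM in STO cells, above *Vegfa* in each of them (adjusted p = 1.04e-08). *Ptn* (pleiotrophin), a heparin-binding growth factor of the developing brain, was at 1136 and 1251 FPKM in NSCs and at 83.4 to 91.8 FPKM in STO cells (difference -3.76 ± 0.074, SE, adjusted p = 4.78e-08).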

How the data were processed

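Total RNA was made into libraries with the KAPA Stranded mRNA-Seq kit. By the methods of the study, the authors trimmed the reads, aligned them to mm9 with Hisat2 and quantified RefSeq transcripts with Cufflinks 2.2.1. The authors deposited FPKM values with the bounds of their confidence intervals for 40201 transcripts per sample, and depth was already divided out in them. Whether the strand was used in counting is not given in the sources used here. Transcript identifiers were matched to symbols through a RefSeq table for GRCm38.p6 (99.4% matched), used for names only, and FPKM was summed over transcripts of 1 symbol with overlapping loci. Coordinates are those of the files in mm9.

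Implied fragments were computed by taking the distance to the upper bound as 2 standard deviations of a Poisson count. They cover counting error only, and understate high values. An exact 0 is a listed value and can be a failed estimate, although no transcript of the 10 factors had a failed status. STO cells and NSCs were compared on log2(FPKM + 1), without covariates, in linear models moderated with a trend on mean level (limma 3.58.1 under R 4.3.3). In simulated data, limma called 191 of 200 genes changed by 1 in log2 with the right sign and 4 of the other genes among 12292. The changed genes were drawn from those with an NSC mean above 2 in log2(FPKM + 1), and the noise was independent and normal. In the real comparison 85.6% of genes were called, so the simulated counts do not carry over to it or to factors that are low in NSCs. Promoters were the 250 bases before the start in the RefSeq table, which held 9 of the 10 factors. Python 3.11.15, numpy 2.4.6, pandas 2.3.3 and matplotlib 3.10.9 were used.

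The factors and gene lists were chosen with earlier results of these data known. Named genes were the 10 factors, their receptors, the 2 genes per pathway list with the largest difference among those called and not overlapping, and the 2 markers per list with the highest mean. Alternatives changed the pseudocount, the minimum, the scaling, the trend, the transcripts and the samples, and added the replicate block. Some results from the gene lists are not reported here.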

Additional observations from a re-analysis of the deposited data

How the results depend on the processing

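All 9 factors tested kept their direction and an adjusted p under 0.05 in each of the 97 fits made of them under 11 alternatives, and *Kitl* came nearest to the threshold, with adjusted p-values of 0.000577 to 0.0142. The factors counted as higher or lower in STO cells, and the genes so counted among all tested, moved by less than 1.5 times under each alternative. *Il6*, *Il11*, *Clcf1*, *Ctf1* and *Hgf* passed the minimum through STO cells alone and had to differ, so their agreement over the fits adds no support. *Il11* fell under the minimum, and so has no value, in 2 of the fits that left out 1 STO library. Leaving out an NSC replicate left 1 NSC library, which is assumed to vary like the STO libraries. Both cell types have replicates 1 and 2 in the labels, but nothing pairs them: deviations from the cell type means correlated at 0.011 and 0.060 for the same number. A fit with the replicate block called 4994 genes as higher (5153 without the block) and 5252 as lower (5375 without), and 8 factors were higher and 1 lower in either fit. Quantile normalization moved the median difference of all genes from -0.02 to 0.04. Values from few fragments, those of *Hgf*, *Il11* and *Ctf1* in NSCs, are the least precise.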

Other observations

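Of 9 inflammatory cytokines on a list, 4 reached the minimum for testing, and of these *Il15* was higher in STO cells and *Tslp*, *Il18* and *Il33* were lower, where 41.9% of all genes tested were higher and 43.7% lower. *Tslp*, an epithelial alarmin, was at 6.05 and 3.53 FPKM in NSCs and at 0.409 to 0.487 FPKM in STO cells (difference -1.97 ± 0.175 in log2(FPKM + 1), SE, limma adjusted p = 6.22e-05). *Il18*, a cytokine matured by inflammasomes, was at 16.3 and 17.99 FPKM in NSCs and at 5.22 to 6.42 FPKM in STO cells (adjusted p = 1.56e-05). *Il1b* was listed at 0 in every library, and *Tnf* reached at most 0.094 FPKM, in STO replicate 2.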
